A study of Mus musculus with 18 samples.

Results

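The EGF receptor family and its ligands were described in 4T1 cells, a mouse mammary carcinoma line, by poly(A) RNA-seq. The group was taken by gene symbol and holds 10 of the 34591 gene symbols in the count files. It comprises the receptor genes Egfr, Erbb2 and Erbb3, the receptor inhibitor gene Errfi1, and the ligand genes Areg, Ereg, Hbegf, Tgfa, Btc and Epgn. All 10 symbols were found in the files.

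The series holds 18 libraries in 6 groups of 3. The untreated group was parental 4T1 given fresh medium for 24 h, and the TGFb1 group was parental 4T1 given fresh medium with 2 ng/mL recombinant human TGFb1 for 24 h. The other 4 groups were stable lines made by lentiviral transduction and puromycin selection, carrying either an empty vector (EV) or a vector expressing Wisp1 (also Ccn4), which cells secrete into the matrix. Each of these lines was grown to subconfluence on tissue culture plastic or on plastic coated with type I collagen. The titles of every group open with a code of its own, so any batch that these codes mark cannot be told apart from the group in any comparison. Each vector is represented by 1 stable line, so line and vector cannot be told apart. The labels give replicate numbers but do not say that replicates came from separate cultures, so p-values measure the spread between these samples, which may be technical. All cells were kept in RPMI with fetal calf serum, and whether the fresh medium of the parental groups held serum is not stated.

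ERBB receptors are tyrosine kinases that dimerise when a ligand binds. Egfr binds amphiregulin (Areg), epiregulin (Ereg), HB-EGF (Hbegf), TGF-alpha (Tgfa), betacellulin (Btc) and epigen (Epgn), which are made as membrane precursors and released by ADAM proteases. Erbb2 binds no known ligand and acts as a partner, and Erbb3 has a weak kinase, binds neuregulins and couples to PI3K. The dimers signal through the MAPK cascade, which induces feedback inhibitors, among them Errfi1 (MIG6), a protein that binds and blocks the receptor kinase.

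Promoter sequence was read for the genes that carry the results: Egfr, Areg, Btc and Tgfa, which changed with TGFb1, and Errfi1, which had the lowest adjusted p of the group in both collagen comparisons. The 250 bases before an annotated transcription start, from RefSeq on GRCm38.p6, are given 5′ to 3′ on the gene's strand. Capitals mark the motifs found on either strand. The windows are chr11:16751953-16752202 (plus strand) for Egfr, chr5:91139349-91139598 (plus strand) for Areg, chr5:91402995-91403244 (minus strand) for Btc, chr6:86194972-86195221 (plus strand) for Tgfa, and chr4:150854820-150855069 (plus strand) for the second of 2 listed Errfi1 starts.
Egfr: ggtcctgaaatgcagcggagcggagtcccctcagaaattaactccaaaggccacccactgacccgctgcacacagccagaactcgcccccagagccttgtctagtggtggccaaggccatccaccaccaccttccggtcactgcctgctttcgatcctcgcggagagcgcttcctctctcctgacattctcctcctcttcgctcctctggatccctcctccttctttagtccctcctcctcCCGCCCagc
Areg: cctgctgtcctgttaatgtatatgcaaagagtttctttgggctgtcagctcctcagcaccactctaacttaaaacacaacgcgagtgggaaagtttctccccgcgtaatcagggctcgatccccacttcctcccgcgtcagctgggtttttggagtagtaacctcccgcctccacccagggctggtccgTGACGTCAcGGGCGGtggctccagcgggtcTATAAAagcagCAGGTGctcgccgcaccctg
Btc: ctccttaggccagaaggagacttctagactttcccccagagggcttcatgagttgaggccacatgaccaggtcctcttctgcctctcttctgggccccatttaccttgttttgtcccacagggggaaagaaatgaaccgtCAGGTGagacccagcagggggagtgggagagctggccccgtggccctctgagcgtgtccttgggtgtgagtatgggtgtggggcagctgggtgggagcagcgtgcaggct
Tgfa: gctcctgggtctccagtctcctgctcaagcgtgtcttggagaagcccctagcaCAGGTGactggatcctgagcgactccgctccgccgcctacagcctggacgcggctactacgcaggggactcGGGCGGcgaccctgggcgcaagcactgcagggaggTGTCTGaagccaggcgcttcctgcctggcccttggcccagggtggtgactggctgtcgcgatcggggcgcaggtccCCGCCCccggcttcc
Errfi1: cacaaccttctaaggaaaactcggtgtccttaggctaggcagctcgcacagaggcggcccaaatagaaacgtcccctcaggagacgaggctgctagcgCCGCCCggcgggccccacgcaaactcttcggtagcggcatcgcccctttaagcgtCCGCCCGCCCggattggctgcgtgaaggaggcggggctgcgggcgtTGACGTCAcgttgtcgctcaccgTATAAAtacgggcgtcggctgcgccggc

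Motifs were searched as exact letters on both strands: TGANTCA (AP-1), TGACGTCA (the cAMP response element, CRE), CAGACA (SMAD), GGAATG (TEAD), CACCTG (the E-box of SNAI and ZEB factors), GGGCGG (SP1) and TATAAA (the TATA box). The CRE was found in the Areg window, 61 to 54 bases before the start, and in the Errfi1 window, 51 to 44 bases before the start. It occurs in 1.55% of 32851 RefSeq promoter windows of the same length. A TATA box lay 31 to 26 bases before the Areg start and 28 to 23 bases before this Errfi1 start. The letters TATAAA occur, at any position, in 12.4% of all windows. Areg, Btc and Tgfa each held 1 E-box (17.2% of all windows), at 20 to 15, 110 to 105 and 197 to 192 bases before the start. SP1 letters (32.7% of all windows) stood once in Egfr and in Areg, 2 times in Tgfa and 3 times in Errfi1, where a pair of the matches overlap. SMAD letters (17.1% of all windows) stood in Tgfa, 91 to 86 bases before the start. Of the 3 searched windows not printed, that of Erbb2 and that of the first Errfi1 start held TEAD letters (12.6% of all windows). That of Epgn held an E-box, and the letters TATAAA at 86 to 81 bases before the start. AP-1 letters (6.75% of all windows) were in none of the 8 windows. Areg and Btc are neighbours: the order of protein-coding genes on chromosome 5 in RefSeq is Epgn, Ereg, Areg, Btc.

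Counts assigned to genes ranged from 37552858 to 94401699 per library. The 10 epithelial marker genes all averaged over 1 CPM (counts scaled to a common library size) in every group, with summed levels of 3479 to 6157 CPM over the libraries. Endothelial markers summed to at most 0.519 CPM. Leukocyte markers summed to 4.22 to 22.8 CPM. Cd3e was at 0 in every library, while Cd68 stood at 3.07 to 11.5 CPM and Lyz2 at 0 to 13.3 CPM. Fibroblast markers summed to 25.6 to 141 CPM. Thy1 was at 0 in every library, while Pdgfra stood at 14.5 to 62.5 CPM and Postn at 4.04 to 83.9 CPM. Wisp1, the overexpressed gene, stood at 957 ± 94.9 CPM (SD, n = 3) in the Wisp1 line on plastic and 1088 ± 33.0 CPM on collagen, against 51.7 ± 18.2 and 15.3 ± 1.08 CPM in the EV line. It stood at 22.3 ± 15.7 CPM in untreated and 425 ± 167 CPM in TGFb1-treated cells.

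The group spanned more than 4 orders of magnitude in level, from Ereg to Errfi1. Compared per length, as CPM per kilobase of exon, Erbb2 was the main receptor transcript in every group, with 10.3 ± 1.86 in untreated cells against 2.93 ± 0.866 for Erbb3 and 0.328 ± 0.186 for Egfr. Hbegf was the main ligand transcript per length in every group (64.8 ± 16.9 in untreated cells). Areg (37.7 ± 4.92) and Tgfa (25.2 ± 3.73) followed in untreated cells, and with TGFb1 Tgfa (16.4 ± 1.5) and Areg (15.01 ± 3.22) differed by less than the SD of either. Btc (2.46 ± 0.703) and Epgn (0.244 ± 0.0533) were minor. Errfi1 stood at 92.1 ± 31.5 in untreated cells, above each receptor and each ligand. Ereg gave 0 to 3 counts per library and was not tested. A count of 3 is the limit that a count of 0 allows, and it corresponds to at most 0.0820 CPM in a library, so Ereg was at or under this limit throughout. The other 9 members passed the filter on low counts in every comparison.

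**Figure D1:**
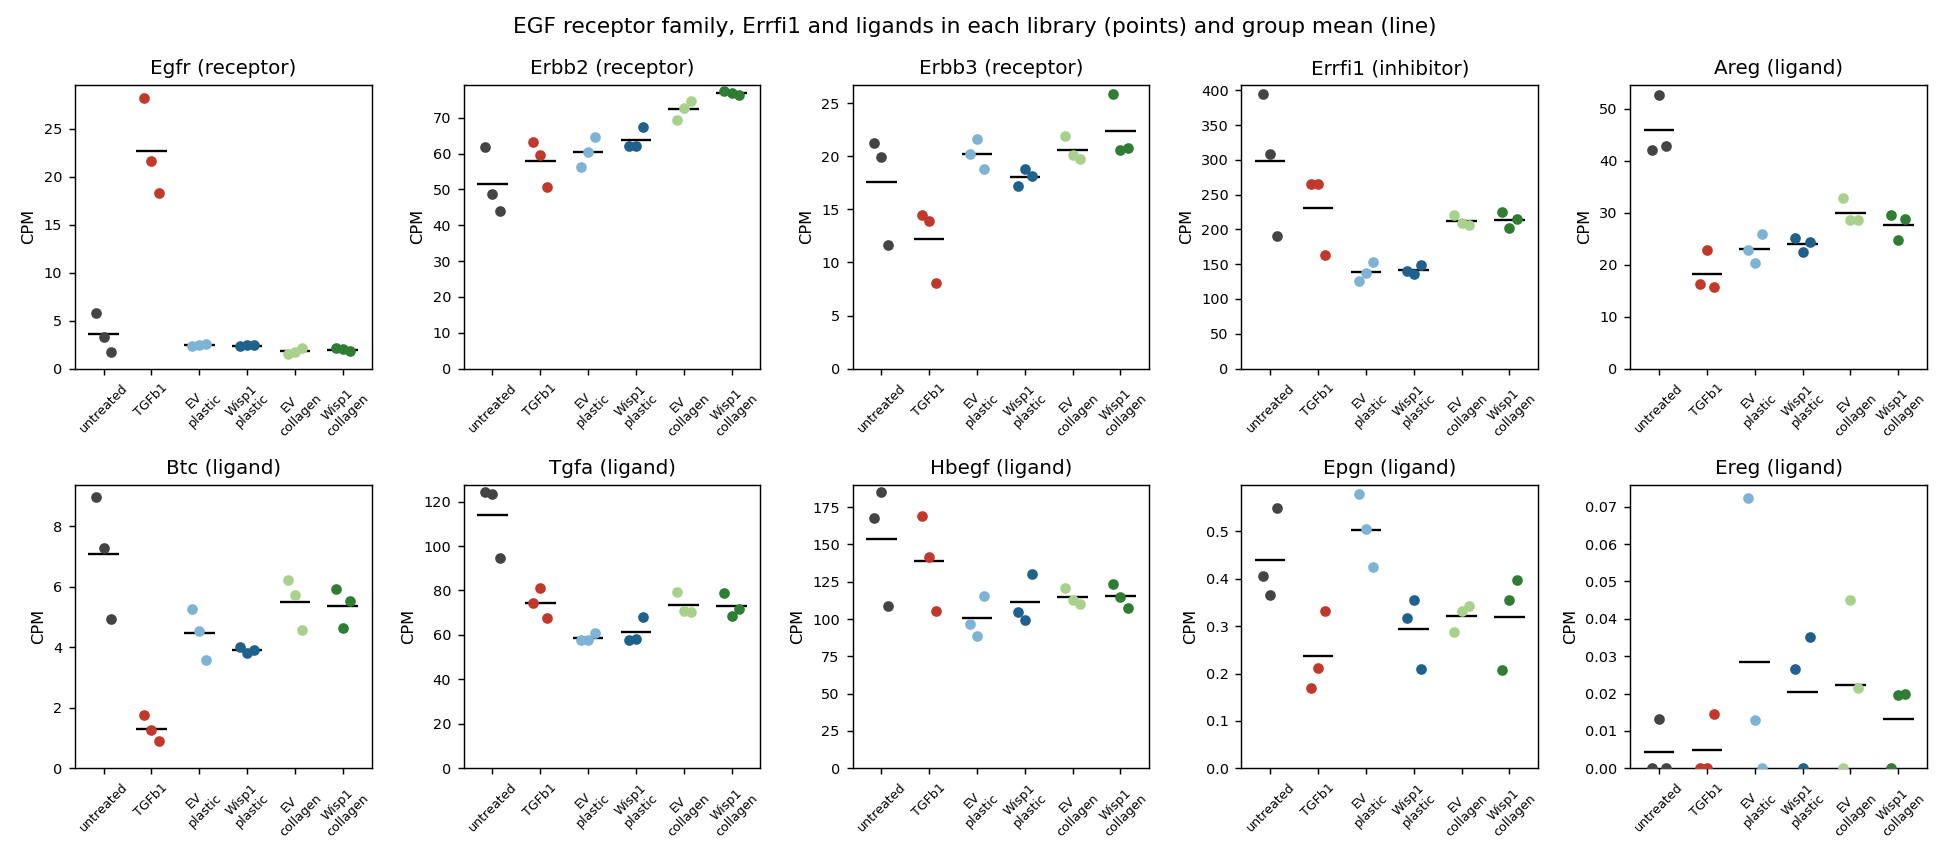
Level in CPM (linear axes from 0) of each of the 10 members in each of the 18 libraries, 1 panel per gene, with points for libraries and a line for the group mean. Egfr is at 18.3 to 28.2 CPM in the TGFb1 libraries and at 1.51 to 5.79 CPM in all others, and Btc is at 0.908 to 1.76 CPM in the TGFb1 libraries and at 3.58 CPM or more elsewhere.

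The comparison of TGFb1-treated with untreated parental cells asks how the cells' transcripts respond to this cytokine. With TGFb1, the Egfr transcript rose 6.22-fold while transcripts of 3 of its ligands fell: Btc 5.44-fold, Areg 2.54-fold and Tgfa 1.55-fold. In all, 4 of the 9 tested members passed the test (edgeR's quasi-likelihood test, Benjamini-Hochberg adjusted p under 0.05), 1 higher and 3 lower. Over all 14874 genes tested, 11.1% were called, 6.14% higher and 4.92% lower. The libraries of these groups did not overlap for 5 members, against 30.7% of all genes.

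Egfr, the receptor of these ligands, stood at 5.79, 3.26 and 1.74 CPM in untreated replicates 1, 2 and 3, and at 28.2, 21.7 and 18.3 CPM in the TGFb1 replicates. Every treated library was above every untreated one, although the untreated libraries themselves spread more than 3-fold. The log2 change was 2.64 (SE 0.45, 95% interval 1.57 to 3.71, edgeR adjusted p = 0.016). Parental libraries also carry another code in their titles, shared by replicate, and within these pairs the ratio was 4.88, 6.64 and 10.5. Pair 3 had the lowest level in both groups and the largest ratio.

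The other receptors moved less. Erbb2, the ligandless partner, stood at 61.9, 48.8 and 43.9 CPM in untreated and 63.2, 59.5 and 50.7 CPM in treated libraries. These ranges overlapped, and the log2 change was 0.15 (SE 0.16, edgeR adjusted p = 0.67). Erbb3, the neuregulin receptor, stood at 21.3, 19.97 and 11.7 CPM in untreated and 14.4, 13.9 and 8.10 CPM in treated libraries. Erbb3 was lower in treated cells in 3 of 3 pairs, but the groups overlapped and the log2 change of -0.55 (SE 0.31) did not pass the unpaired test (edgeR adjusted p = 0.34).

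Per length, the Egfr share of the summed receptor transcripts was 2.30% ± 0.88 (SD, n = 3) in untreated cells and 13.2% ± 1.28 with TGFb1. The Erbb2 share was 76.3% ± 3.98 and 74.1% ± 2.72, and the Erbb3 share was 21.4% ± 3.50 and 12.7% ± 2.18. Erbb2 exceeded Egfr per length 37.1 ± 16.3 times in untreated cells and 5.66 ± 0.659 times with TGFb1.

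Errfi1, the inhibitor, stood at 394, 309 and 191 CPM in untreated and 265, 266 and 163 CPM in treated libraries. The groups overlapped, and the log2 change of -0.38 (SE 0.30) did not pass the unpaired test (edgeR adjusted p = 0.52).

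Among the ligands, Btc stood at 8.97, 7.30 and 4.95 CPM in untreated and 1.76, 1.28 and 0.908 CPM in treated libraries. All treated libraries were below all untreated ones, and the 3 pair ratios were close, at 5.11, 5.71 and 5.44 times lower. The log2 change was -2.44 (SE 0.35, edgeR adjusted p = 0.0095). Areg stood at 42.0, 52.7 and 42.8 CPM in untreated and 16.3, 22.7 and 15.7 CPM in treated libraries. The groups were again apart, with a log2 change of -1.35 (SE 0.19, edgeR adjusted p = 0.0089). Tgfa stood at 124, 123 and 94.6 CPM in untreated and 74.4, 81.1 and 67.6 CPM in treated libraries. Its groups were apart, with a smaller log2 change of -0.63 (SE 0.14, edgeR adjusted p = 0.035).

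Hbegf did not pass the test, with 168, 185 and 108 CPM in untreated and 169, 142 and 106 CPM in treated libraries (log2 change -0.17, 95% interval -0.75 to 0.42, edgeR adjusted p = 0.76). Epgn, at 0.367 to 0.549 CPM in untreated and 0.168 to 0.332 CPM in treated libraries, did not overlap but missed the threshold (log2 change -0.91, edgeR adjusted p = 0.19). Its counts were only 14 to 46 per library. The summed ligand level was 130 ± 24.2 CPM per kilobase in untreated and 90.5 ± 15.5 with TGFb1. The Hbegf share of this sum was 49.2% ± 4.47 in untreated and 64.2% ± 5.01 in treated cells, and the Areg share was 29.3% ± 4.29 and 16.7% ± 3.2.

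With the shared code as a block, 7 of 9 members were called, against 44.9% of all genes. In that fit the edgeR adjusted p was 0.00021 for Egfr, 2.1e-05 for Btc, 3.1e-05 for Areg and 0.0004 for Tgfa. The added members were Erbb3 (log2 change -0.55, adjusted p = 0.0010), Errfi1 (-0.36, adjusted p = 0.012) and Epgn (-0.93, adjusted p = 0.028), all lower with TGFb1. The unpaired calls depended on single libraries: without untreated replicate 2 or without TGFb1 replicate 2, only Areg was called, and the adjusted p was 0.086 or 0.061 for Egfr and 0.053 or 0.057 for Btc. Over all genes, those fits called 380 of 15223 and 517 of 15212. Tgfa kept its call only when untreated replicate 3 was left out (adjusted p up to 0.15 in the other 5 fits). These left-out fits did not use the block, and each broke a pair. In bulk RNA, fewer cells expressing a gene and less RNA per cell cannot be told apart. The fibroblast marker sum was also higher with TGFb1, at 110 to 141 CPM against 48.8 to 67.7 CPM. Of 9 markers, 5 averaged over 1 CPM with TGFb1 and 2 in untreated cells. Thy1 was at 0 and Pdgfra at 14.5 CPM or more in every library. The part of the fibroblast markers in these changes was not tested.

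**Figure D2:**
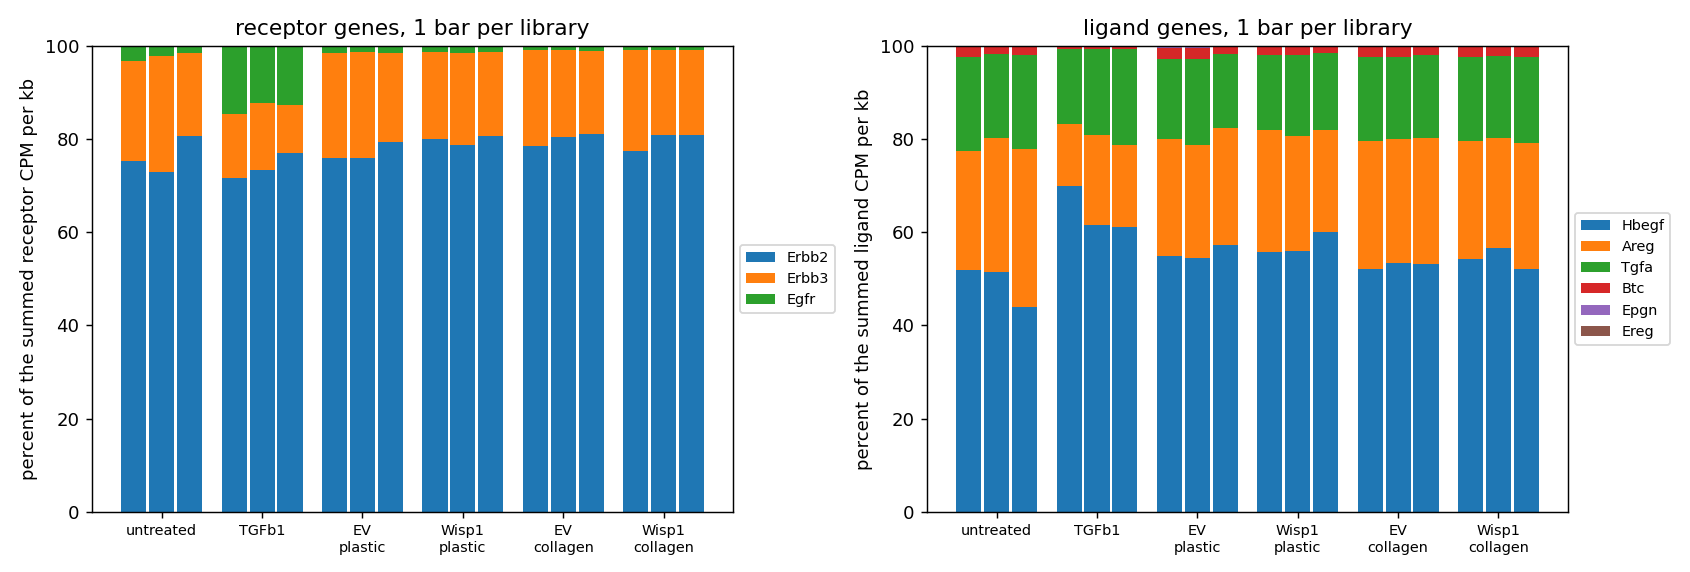
Share of each receptor gene (left) and each ligand gene (right) in the summed CPM per kilobase of its role, in percent, with 1 stacked bar per library in 6 groups. The Egfr share is 12.2% to 14.6% in the TGFb1 libraries and at most 3.22% in the others, while Erbb2 makes up 71.7% or more of the receptor sum in every library.

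Genes around the receptors were taken from 5 lists, none of which holds a member of the group. In the list of 26 MAPK feedback and immediate early genes, 8 fell and none rose with TGFb1, against 4.92% and 6.14% of all genes, and the median log2 change was -0.48 against -0.01 over all genes tested. They were Fosl1, Egr3, Egr1, Jun, Dusp6, Etv4, Spry2 and Spred1. DESeq2 called 10 lower and 1 higher, against 1381 lower and 1529 higher of all 14874 genes. Fosl1, an AP-1 subunit, fell from 132 ± 22.1 to 29.3 ± 4.46 CPM (log2 change -2.19, edgeR adjusted p = 0.0021). Egr1, an immediate early transcription factor, fell from 35.2 ± 8.93 to 11.6 ± 5.65 CPM, and Jun, another AP-1 subunit, fell from 108 ± 20.7 to 46.4 ± 10.5 CPM. Left-out libraries moved the count of lower genes, with none higher. It was 1 or 2 when untreated replicate 2 or 1 was dropped, where 108 of 15223 and 416 of 15212 genes were called lower. It was 4 or 3 when TGFb1 replicate 2 or 3 was dropped, where 162 of 15212 and 338 of 15169 genes were called lower. Egr1 lost its call in 4 of these 6 fits (adjusted p up to 0.15 without untreated replicate 2) and Jun in 2 (0.078 without untreated replicate 2, 0.051 without TGFb1 replicate 2). With the pair block, 15 were lower and 3 higher, against 22.5% and 22.4% of all genes.

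Of 10 tested genes for ligand shedding and trafficking, 1 rose and 1 fell, and with the pair block 2 rose and 1 fell, against the same shares of all genes. Adam12, a membrane metalloprotease, rose from 36.4 ± 6.87 to 209 ± 5.35 CPM (5.68-fold, edgeR adjusted p = 0.0014). Adam17, the main sheddase of several EGF receptor ligands, fell from 158 ± 36.8 to 89.8 ± 10.8 CPM (log2 change -0.83, edgeR adjusted p = 0.035). The Adam17 call was lost in 5 of the 6 fits that left out a library, those without any one of the 3 TGFb1 replicates or without untreated replicate 1 or 2 (adjusted p up to 0.10).

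Of 26 tested adaptor and signalling genes, 3 rose and 1 fell, against 6.14% and 4.92% of all genes. DESeq2 called 6 higher and 1 lower, against 1529 higher and 1381 lower of all 14874 genes. The pair block called 10 higher and 2 lower, against 22.4% and 22.5% of all genes. The count of higher genes was 0 without any one untreated replicate or without TGFb1 replicate 2, and 1 without TGFb1 replicate 3. Over all genes, those fits called from 272 of 15223 to 643 of 15169 higher. Eps8, a receptor kinase substrate that links to actin, fell from 241 ± 7.18 to 66.9 ± 15.1 CPM (log2 change -1.87, edgeR adjusted p = 0.0028). Stat3, a transcription factor downstream of these receptors, rose by 0.58 on the log2 scale (adjusted p = 0.025), and the kinase gene Map2k1 rose by 0.45 (adjusted p = 0.025). The other riser was Pik3cb, a PI3K catalytic subunit. The Stat3 and Map2k1 calls were lost in 5 of 6 fits with a library left out, the exception being TGFb1 replicate 1.

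Of 27 genes for receptor turnover and inhibition, 2 fell and 0 rose, against 4.92% and 6.14% of all genes. DESeq2 called 3 lower and 3 higher, against 1381 lower and 1529 higher of all 14874 genes. The pair block called 8 lower and 8 higher, against 22.5% and 22.4% of all genes. The 2 that fell in edgeR were Lrig1, a membrane inhibitor of ERBB receptors (log2 change -0.66, edgeR adjusted p = 0.022), and Epn2, an endocytic adaptor (-0.65, adjusted p = 0.031). Neither was called without untreated replicate 2 or without any one of the TGFb1 replicates, nor Epn2 without untreated replicate 3 (adjusted p up to 0.12). Without TGFb1 replicate 1 the list had 1 gene higher and 0 lower, against 736 higher and 694 lower of 15192 genes. Among the other ERBB receptors and ligands, Erbb4 gave 0 to 5 counts per library, and 3 of 6 genes were tested, of which 1 was called lower, and 1 lower and 1 higher with the pair block. Nrg1, a ligand of Erbb3, stood at 14.2 ± 2.01 CPM in untreated and 17.4 ± 0.455 CPM in treated cells (edgeR adjusted p = 0.32). The called gene of this list was Nrg2, another neuregulin, which is named after its values were seen and lies at low counts: 1.10 ± 0.291 CPM in untreated and 0.0868 ± 0.0400 CPM in treated cells (log2 change -3.65, edgeR adjusted p = 0.0057).

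**Figure D3:**
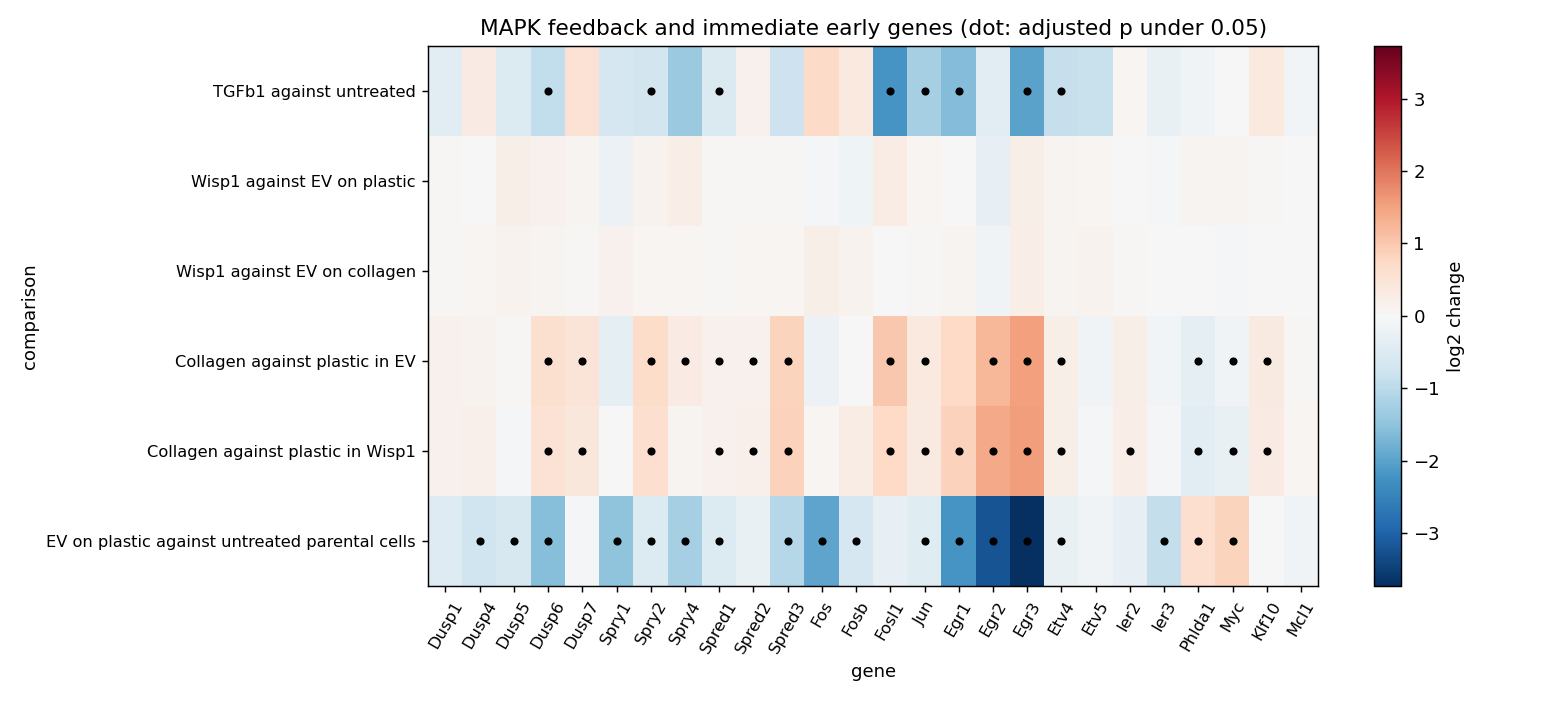
Log2 change (colour) of 26 MAPK feedback and immediate early genes (columns) in 6 comparisons (rows), with a dot where the edgeR adjusted p is under 0.05. Dots in the TGFb1 row are all on lower values, the 2 Wisp1 rows hold no dot, and 13 and 14 dots in the collagen rows are on higher values.

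The comparison of the Wisp1 line with the EV line asks what Wisp1 overexpression changes. No member passed the test on plastic or on collagen (edgeR's quasi-likelihood test), against 0.0143% (0.0143% higher, 0% lower) and 0.0717% (0.043% higher, 0.0287% lower) of all 13953 genes. At an unadjusted p under 0.05 there was 1 member on plastic (Epgn) and 0 on collagen, and DESeq2 and limma-voom called 0 on either substrate. Egfr stood at 2.34, 2.43 and 2.59 CPM in EV and 2.33, 2.43 and 2.40 CPM in Wisp1 cells on plastic. These libraries overlapped, and the log2 change was -0.04 with a 95% interval of -0.33 to 0.25. On collagen, Egfr stood at 1.51, 1.75 and 2.17 CPM in EV and 2.09, 1.99 and 1.83 CPM in Wisp1 cells (log2 change 0.11, 95% interval -0.17 to 0.40).

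Areg differed by 0.06 on the log2 scale on plastic (95% interval -0.14 to 0.26) and by -0.11 on collagen (-0.31 to 0.08). Btc differed by -0.19 (-0.53 to 0.15) and -0.03 (-0.34 to 0.28), and Errfi1 by 0.03 (-0.10 to 0.17) and 0.01 (-0.12 to 0.15). Epgn had the largest value of the group on plastic, -0.81 (-1.46 to -0.16, edgeR adjusted p = 0.79), at 12 to 39 counts per library. The libraries did not overlap for 2 members on plastic, Erbb3 and Epgn, against 12.5% of all genes, and for 1 on collagen, Erbb2, against 9.42%. With the replicate number as a block within each substrate, Hbegf was called on plastic (log2 change 0.15, adjusted p = 0.0068), and 3.15% of all genes were called. Hbegf was higher in the Wisp1 line in 3 of 3 numbered pairs there, by 1.08, 1.12 and 1.13 times, while its log2 change on collagen was 0.01.

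The difference of the Wisp1 effects between substrates was tested as an interaction. It was called for 0 members and 0% of all genes in edgeR, with 1 member (Erbb3, 0.29) at an unadjusted p under 0.05 and 0 members in DESeq2 and limma-voom. None of the genes in the 5 lists was called for Wisp1 on either substrate in edgeR or limma-voom, and DESeq2 called 1, from the MAPK list on plastic.

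The TGFb1 and Wisp1 effects were set against each other in one fit of all 18 libraries. The TGFb1 effect minus the Wisp1 effect on plastic was called for 4 of 9 members, 1 above 0 and 3 below, against 18.9% of all genes (10.1% above, 8.75% below). The difference was 2.70 on the log2 scale for Egfr (SE 0.42, edgeR adjusted p = 0.00033), -2.23 for Btc (SE 0.34, adjusted p = 0.00025), -1.39 for Areg (SE 0.20, adjusted p = 0.00015) and -0.68 for Tgfa (SE 0.15, adjusted p = 0.0040). It remained at 4 called members with any one library of these groups left out. This fit takes the spread from all 18 libraries, stable lines included. Egfr stood at 3.60 ± 2.04 CPM in untreated and 22.7 ± 5.06 CPM in TGFb1-treated cells, against 2.45 ± 0.128 and 2.39 ± 0.0525 CPM in EV and Wisp1 cells on plastic. For TGFb1 itself, this fit called 4865 of 15032 genes, against 1645 of 14874 from the parental libraries alone. The steady count therefore does not offset the calls lost in the parental fits. The effects were measured in different cells, parental in one case and stable lines in the other.

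**Figure D4:**
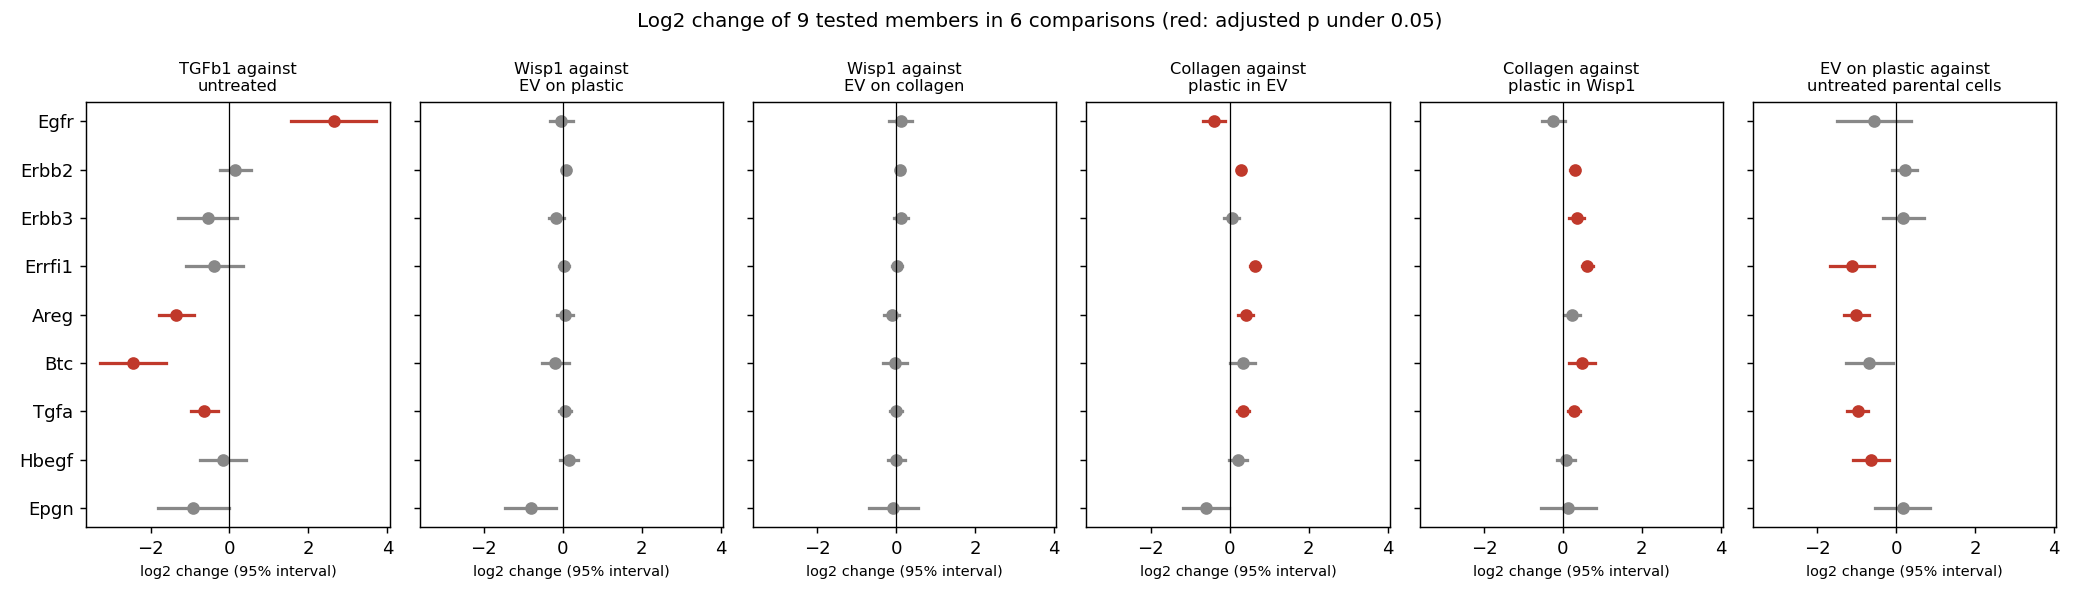
Log2 change (point) and 95% interval (bar) of the 9 tested members in 6 comparisons, 1 panel each on a shared axis, red where the edgeR adjusted p is under 0.05. Egfr at 2.64 and Btc at -2.44 with TGFb1 are the extremes, all Wisp1 points are grey, and Errfi1 is near 0.6 in both collagen panels.

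The comparison of collagen with plastic in each stable line asks how the substrate changes expression. On collagen, Errfi1 rose 1.56-fold in the EV line and 1.54-fold in the Wisp1 line, Erbb2 rose 1.22-fold and 1.23-fold, and Tgfa rose 1.27-fold and 1.21-fold. In the EV line 5 of 9 members were called, 4 higher and 1 lower, against 36.5% of all genes (19.2% higher, 17.3% lower). In the Wisp1 line 5 were called, all higher, against 40.4% of all genes (21.3% higher, 19.1% lower). In each line 6 members had libraries that did not overlap, against 48% and 51.5% of all genes.

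Errfi1 stood at 125, 137 and 153 CPM in EV cells on plastic and at 220, 209 and 206 CPM on collagen. The Wisp1 line gave 140, 137 and 149 CPM on plastic and 225, 203 and 214 CPM on collagen. Every collagen library was above every plastic library. The log2 change was 0.64 (SE 0.06, edgeR adjusted p = 4.3e-06) in EV and 0.62 (SE 0.06, adjusted p = 6e-06) in Wisp1 cells.

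Erbb2 stood at 56.3, 60.5 and 64.7 CPM in EV cells on plastic and 69.5, 72.8 and 74.7 CPM on collagen, and at 62.1, 62.2 and 67.4 CPM and 77.5, 76.8 and 76.5 CPM in Wisp1 cells. The groups were apart in each line, with log2 changes of 0.29 (edgeR adjusted p = 0.00045) and 0.30 (adjusted p = 0.00032). Mien1, a gene on the other strand, shares exonic bases with Erbb2 in the GENCODE annotation, and whether the counting used strand is not given in the sources used here.

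Egfr was low on both substrates. In EV cells its log2 change on collagen was -0.40 (SE 0.13, edgeR adjusted p = 0.030), with no overlap between libraries. That call was lost without any one EV plastic replicate or without EV collagen replicate 1 or 2 (adjusted p 0.051 to 0.12). In Wisp1 cells the change was -0.24 (adjusted p = 0.17). Erbb3 rose in Wisp1 cells (log2 change 0.35, edgeR adjusted p = 0.0066) and gave 0.05 in EV cells (adjusted p = 0.68). The test of that difference is the interaction above, with an adjusted p of 0.97. Egfr was 0.913% ± 0.151 and 0.934% ± 0.0432 of the receptor sum per length on collagen, against 1.43% ± 0.0315 and 1.37% ± 0.0476 on plastic, in EV and Wisp1 cells.

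Among the ligands on collagen, Tgfa stood at 57.6, 57.9 and 60.7 CPM on plastic and 79.3, 70.9 and 70.2 CPM on collagen in EV cells (log2 change 0.35, edgeR adjusted p = 0.0014). In Wisp1 cells it stood at 57.7, 58.3 and 68.0 CPM and 79.1, 68.3 and 71.9 CPM (0.28, adjusted p = 0.0056). Plastic and collagen libraries were apart in each line, narrowly so in the Wisp1 line. Areg rose in EV cells, from 22.8, 20.3 and 25.9 CPM to 32.8, 28.5 and 28.6 CPM (log2 change 0.41, edgeR adjusted p = 0.0031), and gave 0.24 in Wisp1 cells (adjusted p = 0.056). Btc gave 0.33 in EV cells (adjusted p = 0.098) and rose by 0.49 in Wisp1 cells (edgeR adjusted p = 0.020). The Wisp1 call for Btc was lost without Wisp1 plastic replicate 2 (adjusted p = 0.060), plastic replicate 3 (0.057) or collagen replicate 1 (0.074). Hbegf gave 0.22 and 0.07 and was not called in either line, nor was Epgn, at -0.60 and 0.14. With the replicate number as a block over all 4 stable groups, Areg was called in Wisp1 cells too (0.23, edgeR adjusted p = 0.013). Btc was called in EV cells too in that fit (0.33, edgeR adjusted p = 0.041). That fit called 5690 of 13953 genes in EV and 6238 in Wisp1 cells. Between substrates most same-numbered libraries missed the correlation of 0.1 set as the rule for pairs, so the rule does not back this block there.

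In a fit of all 18 libraries, which takes the spread from all 6 groups, no member was called on collagen in either line, against 10.8% of all genes in EV and 13.8% in Wisp1 cells, with an adjusted p of 0.066 and 0.065 for Errfi1 and log2 changes of 0.61 and 0.59. Summed leukocyte markers were 11.9 to 22.8 CPM on collagen and 8.97 to 14.9 CPM on plastic. Cd3e was at 0 and Cd68 at 3.07 CPM or more throughout. The part of the leukocyte markers in these changes was not tested.

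Of the 26 MAPK feedback and immediate early genes, 13 rose and 2 fell on collagen in EV cells, and 14 rose and 2 fell in Wisp1 cells, with medians of 0.19 and 0.22 on the log2 scale. The counts of this list and of those that follow stand against 19.2% of all genes higher and 17.3% lower in EV cells, and 21.3% and 19.1% in Wisp1 cells. The fallers in each line were Myc and Phlda1. Fosl1 rose from 108 ± 5.59 to 213 ± 8.81 CPM in EV cells (log2 change 1.01, edgeR adjusted p = 3.4e-08) and by 0.73 in Wisp1 cells. Spred3, an inhibitor of Ras signalling, rose by 0.84 and 0.87, and Spry2, a feedback inhibitor of receptor kinase signalling, by 0.67 and 0.62. Egr1 rose by 0.85 in Wisp1 cells (edgeR adjusted p = 0.030), a call lost without Wisp1 collagen replicate 1 or 3 or Wisp1 plastic replicate 1 or 2. In the fit of all 18 libraries 6 genes of this list rose and 0 fell in EV cells, against 5.43% of all genes higher and 5.41% lower. In Wisp1 cells 6 rose and 1 fell, against 6.59% and 7.18%.

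Of 27 turnover and inhibition genes, 12 rose and 5 fell on collagen in EV cells, against 19.2% and 17.3% of all genes. In Wisp1 cells 14 rose and 4 fell, against 21.3% and 19.1%. The same shares apply to the next 2 lists. Sh3kbp1, a Cbl-binding adaptor of receptor endocytosis, rose by 0.70 and 0.72 on the log2 scale, and Rin1, a Ras effector that acts in endocytosis, by 0.63 and 0.52. Of 26 adaptor genes, 9 rose and 4 fell in EV cells and 8 rose and 7 fell in Wisp1 cells. Eps8 rose by 0.58 and 0.62. Of 10 shedding genes, 4 rose and 2 fell in EV cells and 4 rose in Wisp1 cells. Rhbdf2, which carries Adam17 to the surface, rose by 0.32 and 0.41. Adam12 fell by 0.85 in EV cells (edgeR adjusted p = 0.046), a call lost with any one EV library left out (adjusted p 0.052 to 0.16). Nrg1 fell by 0.23 and 0.25, a call lost in EV cells without EV collagen replicate 2 (adjusted p = 0.062).

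The EV line on plastic was also set against the untreated parental cells. These groups differ in vector, selection, medium change, time and library series at once, and none of these can be told apart. The comparison shares the untreated libraries with that of TGFb1. In the EV line 4 of 9 members were called, a share near the 43.4% of all genes called (19.5% higher, 23.8% lower). All 4 were lower: Errfi1 and 3 ligands. The libraries did not overlap for 3 members, against 57.7% of all genes. Errfi1 fell by 1.12 on the log2 scale (SE 0.24, edgeR adjusted p = 0.0087), Areg by 1.01 (SE 0.13, adjusted p = 0.0016), Tgfa by 0.98 (SE 0.11, adjusted p = 0.0011) and Hbegf by 0.63 (SE 0.20, adjusted p = 0.035). The Hbegf groups overlapped, and its call was lost without any one EV plastic replicate or without untreated replicate 1 or 2 (adjusted p 0.062 to 0.13). Egfr gave -0.57 (adjusted p = 0.28, but -0.90 and 0.023 without untreated replicate 3). Erbb2 gave 0.21 (adjusted p = 0.23, but 0.40 and 0.0069 without untreated replicate 1), and Btc gave -0.68 (adjusted p = 0.063, but -0.88 and 0.0092 without untreated replicate 3).

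Of the 26 MAPK feedback and immediate early genes, 16 were lower and 2 higher in the EV line, against 23.8% and 19.5% of all genes, with a median of -0.50 against -0.05 over all genes. Egr1 fell by 2.20 on the log2 scale. Dusp6, a phosphatase that inactivates ERK, was 2.99-fold lower and Spry1, a feedback inhibitor, 2.82-fold. The Spry1 call was lost without untreated replicate 2 or any one EV plastic replicate (adjusted p 0.055 to 0.070). The lower count was 9 without EV plastic replicate 2 or 3, where 2192 of 14863 and 2080 of 14933 genes were called lower. Fosl1, which fell with TGFb1, gave -0.31 here (adjusted p = 0.085).

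Across the 6 groups the order of levels differed by gene. Egfr ran from EV collagen (1.81 ± 0.334 CPM) to TGFb1 (22.7 ± 5.06 CPM), and untreated and TGFb1 were neighbours whose libraries did not overlap. Errfi1 ran from EV plastic (138 ± 13.7 CPM) to untreated (298 ± 102 CPM), where the untreated libraries overlapped those of the TGFb1 and collagen groups. Areg was lowest with TGFb1 (18.2 ± 3.91 CPM) and highest in untreated cells (45.8 ± 5.97 CPM), and the untreated libraries were above all others. Btc ran from 1.31 ± 0.426 CPM with TGFb1 to 7.07 ± 2.02 CPM in untreated cells, and the TGFb1 libraries were below all others. Erbb2 ran from untreated (51.6 ± 9.31 CPM) to Wisp1 collagen (76.9 ± 0.510 CPM).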

How the data were processed

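RNA was measured in 18 libraries, poly(A)-selected and made with a stranded kit, per the labels' protocols. The authors deposited raw counts per gene symbol. Tools listed in the submitters' processing notes, without roles, are STAR, BWA, HTSeq, CASAVA, R 3.2.4 and limma, with mm9 as the build. Annotation and strand setting: not given in the sources used here. Rows naming no gene (10.23% to 13.52% of reads without a feature, 1.019% to 2.082% ambiguous) were left out of library sizes and tests.

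Counts were tested on all genes with edgeR 4.0.16 in R 4.3.3 (TMM scaling, filterByExpr, robust quasi-likelihood test, Benjamini-Hochberg adjustment, called under 0.05). TGFb1 was fitted on the 6 parental libraries, the stable lines on their 12, the EV line against untreated on 6, and the difference of effects on 18. CPM are TMM-scaled over 18 libraries. Lengths per kilobase come from GENCODE M21 exons matched by symbol, since no mm9 annotation was used. Alternatives were other scalings and filters, DESeq2 1.42.0, limma-voom 3.58.1, other sample sets, each library left out and replicate blocks. Deviations of same-numbered libraries correlated at 0.74 to 0.86 for untreated and TGFb1, and at 0.27 to 0.73 for EV and Wisp1 within a substrate, all above 0.1, which meets the rule for pairs. The main fits are unpaired. Block fits are given for members where they changed a call, and for called members and the gene lists in the TGFb1 comparison. Between substrates 4 of the 6 pairs did not reach 0.1. The unpaired fits were also run on simulated counts. These were drawn independently for each library with no replicate effect, so that run cannot speak to the pairing.

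The members and gene lists were chosen with earlier results of these data known. Every member was named. From each list and comparison, up to 3 called genes with a mean of at least 5 CPM and the largest change were named, and others were named after their values were seen. Promoters came from RefSeq (GRCm38.p6) by symbol: 7 members matched 8 entries that were searched, and Hbegf is not printed.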

Additional observations from a re-analysis of the deposited data

How the results depend on the processing

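With the replicate block, 7 members were called for TGFb1, and with the block within each substrate 1 was called for Wisp1 on plastic. In one fit of all 18 libraries, 0 members were called on collagen in EV and 0 in Wisp1 cells. With single libraries left out, called members ranged from 1 to 4 for TGFb1 and were 0 for Wisp1 on each substrate. For TGFb1 it was 1 without untreated replicate 2 or TGFb1 replicate 2, where 380 of 15223 and 517 of 15212 genes were called. On collagen 4 to 6 members were called in each line, against 3849 of 14074 to 4598 of 14091 genes in EV cells. In Wisp1 cells the genes called were 4450 of 14141 to 5443 of 14128. For EV against untreated 3 to 6 members were called, against 3711 of 14933 to 8557 of 14791 genes. The block over all 4 stable groups changed no Wisp1 call. It gave 6 members on collagen in each line, against 5690 of 13953 genes in EV and 6238 in Wisp1 cells. The added members were Btc in EV and Areg in Wisp1 cells. Most pairs between substrates did not meet the rule for pairs.

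Changes of sign were seen for uncalled values, and some of their ranges reached well away from 0. With libraries left out, the log2 change for Wisp1 on plastic ranged from -0.03 to 0.10 for Errfi1, -0.03 to 0.15 for Areg and -0.02 to 0.10 for Tgfa. For Wisp1 on collagen it ranged from -0.02 to 0.05 for Errfi1, -0.07 to 0.05 for Tgfa, -0.05 to 0.05 for Hbegf, -0.27 to 0.22 for Epgn and -0.16 to 0.07 for Btc, which was 0.02 in limma-voom. The interaction ranged from -0.09 to 0.04 for Errfi1, -0.03 to 0.05 for Erbb2 and -0.13 to 0.01 for Tgfa. On collagen, Erbb3 in EV ranged from -0.00 to 0.10, and in Wisp1 cells Hbegf from -0.00 to 0.20 and Epgn from -0.11 to 0.43. Erbb3 in EV against untreated ranged from -0.04 to 0.37. For the TGFb1 minus Wisp1 difference, Erbb2 ranged from -0.03 to 0.24 and Epgn from -0.42 to 0.06.

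Calls over all genes depended on the fit. For TGFb1 there were 1645, and 2910 with DESeq2, 4865 in one fit of 18 libraries, 6672 with the block and 380 to 1430 with a library left out. For Wisp1 on plastic there were 2, and 18 with DESeq2, 440 with the block within each substrate, 1 with the stricter filter, 1 in one fit of 18, 0 from its 6 libraries alone, and 1 to 2 with a library left out. For Wisp1 on collagen there were 10, and 40 with DESeq2, 32 with no filter, 6 with the stricter filter, 4 in one fit of 18, 2 from 6 libraries, 18 with the block over all groups, 358 with the block within each substrate and 5 to 11 with a library left out. Collagen gave 5095 in EV and 5641 in Wisp1 cells, and 1629 and 2071 in one fit of 18. The interaction gave 0, and 70 with the block within each substrate. EV against untreated gave 6276, and 3711 to 8557 with a library left out. The cause of these differences was not tested. Depth left 0 to 3 counts per library for Ereg, which was not tested.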

Other observations

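The genes whose pattern over the 18 libraries was closest to a member were sought among 10510 genes with a mean of at least 5 CPM, by the root mean square difference of centred log2 levels. This is a description, since all values come from the same libraries. Closest to Egfr were Gng11 (0.25), a G protein gamma subunit, Matn2 (0.27), a matrix protein, and Ifi47 (0.31), an interferon-induced GTPase. Closest to Areg were Thsd4 (0.16), Gfod1 (0.17) and 9330188P03Rik (0.17). Closest to Errfi1 were Csad (0.13), an enzyme of taurine synthesis, Tmem40 (0.14) and Pear1 (0.14). Closest to Btc were Eps8 (0.23), Dscc1 (0.25) and Lat2 (0.26), among 10511 genes. Eps8 is also on the list of adaptors described with the TGFb1 comparison.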
